A study of Mus musculus with 15 samples.

Results

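The genes described here encode the proteins of the cytosolic ribosome, followed in mouse podocytes kept with and without mechanical stretch. They were chosen by name from the protein-coding genes of the count table: a symbol of Rpl or Rps with a number, with or without a final a, x or l, together with Rpsa, Rplp0, Rplp1 and Rplp2. The rule took 80 of 55416 genes, 49 of the large subunit and 31 of the small subunit. No expression value entered it.

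All 15 samples were SVI cells, a conditionally immortalised line of mouse kidney podocytes grown on elastic membranes, and the labels name no genotype or agent that differs between them. Experiment 1 had 6 low-stretch samples, labelled as a membrane deflection of 5 to 6 mm, and 3 unstretched samples. Experiment 2 had 3 high-stretch samples, labelled 7 to 8 mm, and 3 unstretched samples of its own. The design text gives 6 mm and 8 mm for the amplitudes, and the duration of stretch is not given in the sources used here. Amplitude and experiment were the same split, so each stretched group was set against its own unstretched samples only. Nothing in the labels says that the samples of a group came from separate cultures, so the p-values measure only the spread between these samples, which may be technical.

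Ribosomes translate messenger RNA. The small subunit decodes the message, the large subunit joins the amino acids, and a stalk built of Rplp0, Rplp1 and Rplp2 recruits the factors that drive elongation. Ribosomal proteins are needed in matched amounts, and their genes are among the most highly expressed in most cells. Many of their messages begin with a run of pyrimidines, the terminal oligopyrimidine motif, through which mTOR signalling sets how strongly they are translated. When assembly fails, free Rpl5 and Rpl11 bind Mdm2, the ligase that keeps p53 low. Podocytes are the long-lived cells of the kidney filter, whose foot processes are put under tension by capillary pressure, and they need continued protein synthesis to maintain these processes.

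Libraries held 172211836 to 396658285 counts. The samples carried high Synpo, Podxl and Actn4, with group means of 319 to 662, 122 to 185 and 664 to 1789 CPM (counts scaled to a common library total), whereas the slit diaphragm gene Nphs1 was near 0, at most 0.683 CPM. Wt1, a podocyte transcription factor, fell from 2.81 ± 1.75 CPM to 0.545 ± 0.0953 CPM (SD, n = 3 and 3) under high stretch (edgeR adjusted p = 0.0311), a call lost on gene TPM and without any 1 of the high-stretch replicates or unstretched replicate 1. The endothelial genes Emcn, Kdr, Cdh5 and Pecam1 were all below 0.1 CPM in every group mean. Of the macrophage markers, Csf1r fell in both stretched groups (edgeR adjusted p = 0.00739 and 0.00808, the second lost without high-stretch replicate 3), while Adgre1 and Ptprc were at or near 0. The other macrophage markers tested did not pass, with log2 fold changes of -0.12 and 0.91 under low stretch and 0.86 under high stretch. Of 3 proximal tubule markers tested, 2 fell under low stretch: Lrp2, an endocytic receptor, from 990 ± 86.7 to 634 ± 109 CPM (SD, n = 3 and 6), and Slc5a2, below 1 CPM in every group mean. Lrp2 and Cubn were also lower in the unstretched samples of experiment 2 than in those of experiment 1. Of 3 mesangial markers tested, Pdgfrb fell under low stretch, from 87.1 ± 10.1 to 59.4 ± 7.77 CPM (n = 3 and 6), and 0 of the 6 tubule and mesangial markers passed under high stretch. The calls of Lrp2 and Slc5a2 were lost without low-stretch replicate 4 or any 1 unstretched replicate, that of Slc5a2 also without low-stretch replicate 1, and that of Pdgfrb without unstretched replicate 1 or 3. The part of other cell types in the results was not tested. Replicate 3 of the unstretched samples of experiment 2 stood apart from replicates 1 and 2: mitochondrial genes took 2.60% of its counts against 1.56% and 1.15%, and the ribosomal protein genes took 4.06% against 6.34% and 6.58%. The main results that rest on it are given with and without it. In bulk samples such as these, fewer cells of a type and less RNA per cell cannot be told apart.

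On the TPM scale, which divides by transcript length and sets the same total for every sample, the acidic stalk protein Rplp1 had the highest mean level over the 15 samples, 6752 TPM. Rps2, a protein at the entrance of the mRNA channel, followed with 5357 TPM, and Rpl41, the smallest ribosomal protein, with 4964 TPM. Rps2 and Rpl41 did not differ beyond their spread: in the unstretched samples of experiment 1 they had 2972 ± 724 and 3253 ± 504 TPM, and Rplp1 had 4469 ± 351 TPM (SD, n = 3). The tested members with the lowest TPM were Rpl3l, with 0.0475 TPM, Rpl5, with 35.1 TPM, and Rpl12, with 64.7 TPM. Rpl3l is the paralog of Rpl3 used in striated muscle, and it had only 8 to 22 counts in a library. The paralogs known from testis were at the floor of the count table. Rpl10l had 0 counts in all 15 samples, which allows up to 0.00756 to 0.0174 CPM depending on the library (3 counts, counting error only), and Rpl39l had 0 to 9 counts. Their broadly expressed relatives Rpl3, Rpl10 and Rpl39 had 723, 800 and 1341 TPM. After the filter on low counts, 78 members were tested in each comparison, 47 of the large and 31 of the small subunit, and 77 of them had a mean of at least 1 CPM.

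Counts and TPM of a member did not always match. In 77 members, the counts observed were a median of 0.773 times those expected from the TPM and the transcript lengths, against 1.01 times over all 12907 genes with at least 1 TPM. The expected counts used the full annotated transcript lengths, and the part of short transcripts in this lower median was not tested. Rps10 had 5.56 CPM where its TPM predicted 761, Rpl24 had 6.04 where 413 were predicted, and Rpl13a had 61.9 where 1436 were predicted. The opposite held for Rpl5, with 646 CPM against 28.0 predicted, and for Rpl12, with 728 against 42.8. Ribosomal protein genes have many processed pseudogenes of near-identical sequence: 71 of the 80 members shared some 100-base window of their most abundant transcript with another gene, with a median of 40% of windows and a maximum of 98.4% in Rps27. Of the 3 genes with fewer counts than predicted, 20.6% of the exon bases of Rps10, 47.0% of Rpl24 and 35.4% of Rpl13a also lie in another gene on the same strand. The observed ratio was nearly unrelated to the share of common windows (Pearson r = 0.14, Spearman rho = 0.15 across 77 genes, which are not independent). Levels and folds of such members are uncertain, and the part of shared sequence in them was not tested.

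The 80 genes together took 3.00% ± 0.280 (SD, n = 3) of all counts in the unstretched samples of experiment 1, with single values of 2.99%, 3.28% and 2.72%. The 6 low-stretch samples took 3.46% ± 0.467, from 2.86% to 4.26% with a median of 3.36%. Replicate 5 of the low-stretch group was the lowest of these. Replicate 5, and replicate 2 at 3.27%, lay inside the unstretched range. The unstretched samples of experiment 2 took 5.66% ± 1.39 (n = 3), and the high-stretch samples 6.18% ± 0.760 (n = 3), with 5.42%, 6.94% and 6.17%. Stretched and unstretched samples overlapped in both experiments, and every sample of experiment 2 was above all unstretched samples of experiment 1. By summed TPM the group means were 9.51%, 10.6%, 15.7% and 16.8%, in the same order.

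**Figure D1:**
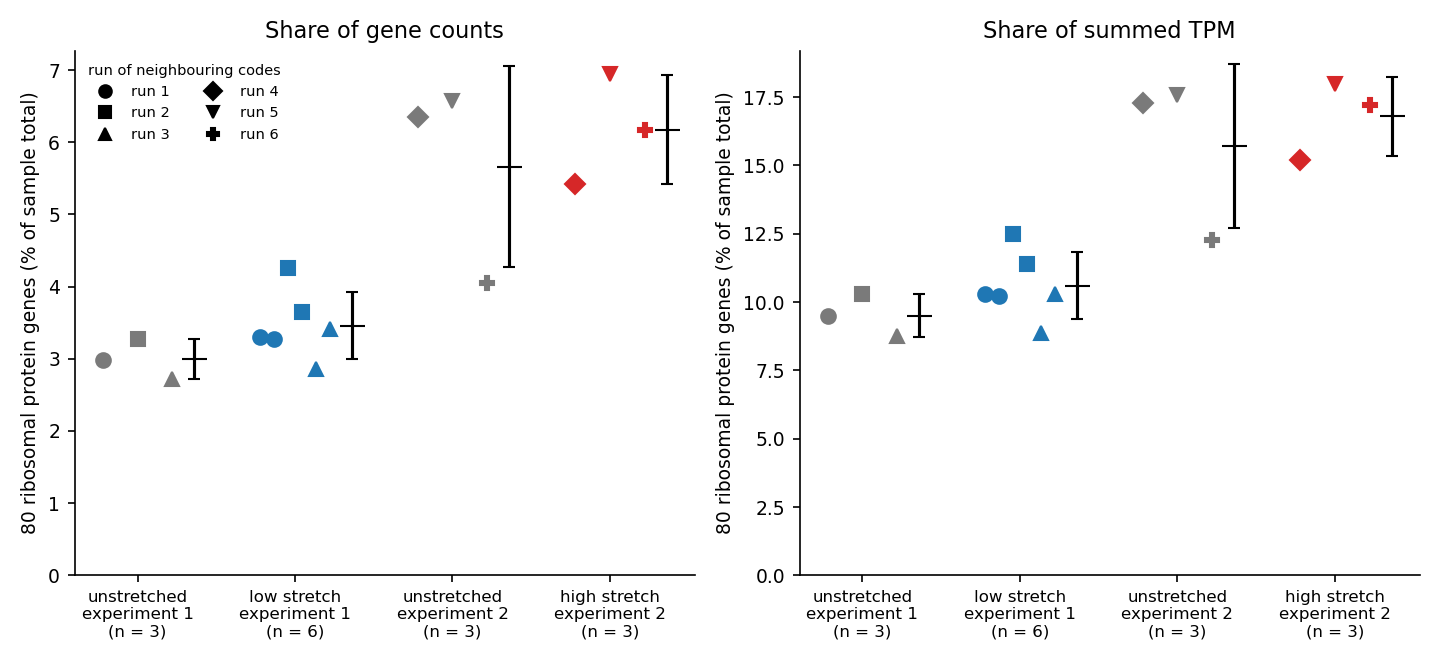
Share of each sample's total taken by the 80 ribosomal protein genes, as a percent of all counts and as a percent of all TPM, for the 4 groups on the x axis; points are samples, bars are group means and error bars the SD (n = 3, 6, 3 and 3). The groups of experiment 2 sit higher than those of experiment 1, with unstretched means of 5.66% and 3.00% of counts, and 1 unstretched sample of experiment 2 lies at 4.06%.

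The low-stretch comparison asked what the smaller amplitude did to podocyte expression. No member passed the test, 0 of 78, in edgeR with p-values adjusted over 21672 genes, of which 5.45% passed. The fitted values were mostly on the same side: 76 of 78 members had a positive log2 fold change, where 51.0% of all genes did, with a median of 0.26, a 1.20-fold level, against 0.01 over all genes. At an unadjusted p under 0.05 there were 24 of 78 members, where 23.6% of all genes were. DESeq2 called 5 members higher, where it called 6.06% of all genes higher and 7.03% lower. The small subunit had a median log2 fold change of 0.28 over 31 genes and the large subunit 0.26 over 47. On gene TPM with limma the members' median was 0.15, against -0.10 over all genes, with 0 of 77 passing.

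Rpl13a, a large-subunit protein also known from the GAIT complex that silences inflammatory mRNAs, had the lowest p. It had 35.6 to 53.1 CPM in the low-stretch samples, with a median of 44.5, and 34.4, 32.2 and 31.9 CPM in the unstretched samples. Every stretched sample was above every unstretched one, by a log2 fold change of 0.44 (SE 0.12, edgeR adjusted p = 0.0577). On gene TPM, which for this gene is far from its counts, the value was 0.13 (limma adjusted p = 0.389). Rps29, a small zinc-binding protein of the decoding subunit, had 195 to 285 CPM with a median of 233, against 169, 192 and 154 CPM, a log2 fold change of 0.44 (SE 0.13, edgeR adjusted p = 0.0711). Its groups did not overlap by these values. Rps28, which sits near the exit of the mRNA channel, had 197 to 271 CPM with a median of 236, against 182, 199 and 164 CPM, a log2 fold change of 0.37 (SE 0.11, edgeR adjusted p = 0.0794), and its lowest stretched sample lay just below the highest unstretched one. Rps2 had the largest fitted value of all 78, 0.44, but with wide groups, 1050 to 2286 CPM with a median of 1699 against 1107, 1580 and 988 CPM, and an edgeR adjusted p of 0.282.

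In 11 members every low-stretch sample was above every unstretched one, where 7.81% of all genes showed this: Rpl13a, Rpl17, Rpl36a, Rpl39, Rpl4, Rpl5, Rps14, Rps15a, Rps25, Rps29 and Rps4x. With libraries scaled within this comparison in place of over all 15 samples, 5 of them did (6.87% of all genes), without Rps29. Among the stalk and surface proteins, Rplp0 had a log2 fold change of 0.37 (SE 0.14), Rplp1 0.36 and Rpsa, which also serves as a laminin receptor, 0.38, with edgeR adjusted p = 0.141, 0.169 and 0.194. The Mdm2-binding pair was at 0.28 for Rpl5 and 0.21 for Rpl11 (edgeR adjusted p = 0.149 and 0.389). Rps6, whose protein is phosphorylated by S6 kinase, was at 0.24, Rps24 at 0.23 and the p53-inducible paralog Rps27l at 0.23 (edgeR adjusted p = 0.336, 0.229 and 0.284). Rpl38 and Rpl22, both known for roles beyond bulk translation, were at 0.29 and 0.13. The lowest value belonged to Rpl3l, with -0.63 at 0.0250 to 0.0591 CPM, followed by Rps10 with -0.01. Single members thus gave small positive values that the spread between samples did not set apart from 0.

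Part of that spread was common to neighbouring samples. The codes in the sample descriptions form an unbroken series of neighbouring positions. For this description the series was cut into 3 runs in each experiment, so that every run holds 1 unstretched sample with the stretched ones beside it. The cuts follow the places of the unstretched samples and are not given by the codes. In experiment 1 the member share in a stretched sample was 1.11, 1.10, 1.30, 1.11, 1.05 and 1.25 times that of the unstretched sample of its run, above 1 in all 6. At the level of genes, 62 of 78 members were above their own run's unstretched sample in all 6 low-stretch samples, where 20.9% of all genes were, and 1 was below in all 6, where 20.5% were. In experiment 2, 14 of 78 members were above in all 3 runs, where 18.2% of all genes were. With the run as a block in the edgeR model of low stretch, 54 of 78 members rose and 0 fell, with a median log2 fold change of 0.26. Of all genes 13.7% rose and 14.5% fell. The smallest adjusted p in that edgeR fit were 0.00248 for Rpl13a, 0.00317 for Rps29 and 0.00335 for Rpl36a. Rps10, Rpl10a, Rpl36, Rpl3, Rpl41 and Rpl22 were among the 24 members that did not pass with the block. Under high stretch the run as a block gave 0 of 78 members, where 8.35% of all genes passed. What the runs stand for is not given in the labels.

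Replicate 5 stood apart within the low-stretch group. In the other low-stretch samples 73 to 77 of the 77 members at 1 CPM or more lay above the unstretched mean, and in replicate 5 only 31 did, with a median log2 difference of -0.02. Replicate 3 had the largest median, 0.59. Among the unstretched samples, 31, 72 and 3 members lay above their own mean. Without low-stretch replicate 5, 7 members rose in edgeR's test: Rps21, Rpl36a, Rps27, Rpl13a, Rps15a, Rps29 and Rps28. Of all genes 2.82% rose and 4.75% fell in that fit.

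**Figure D2:**
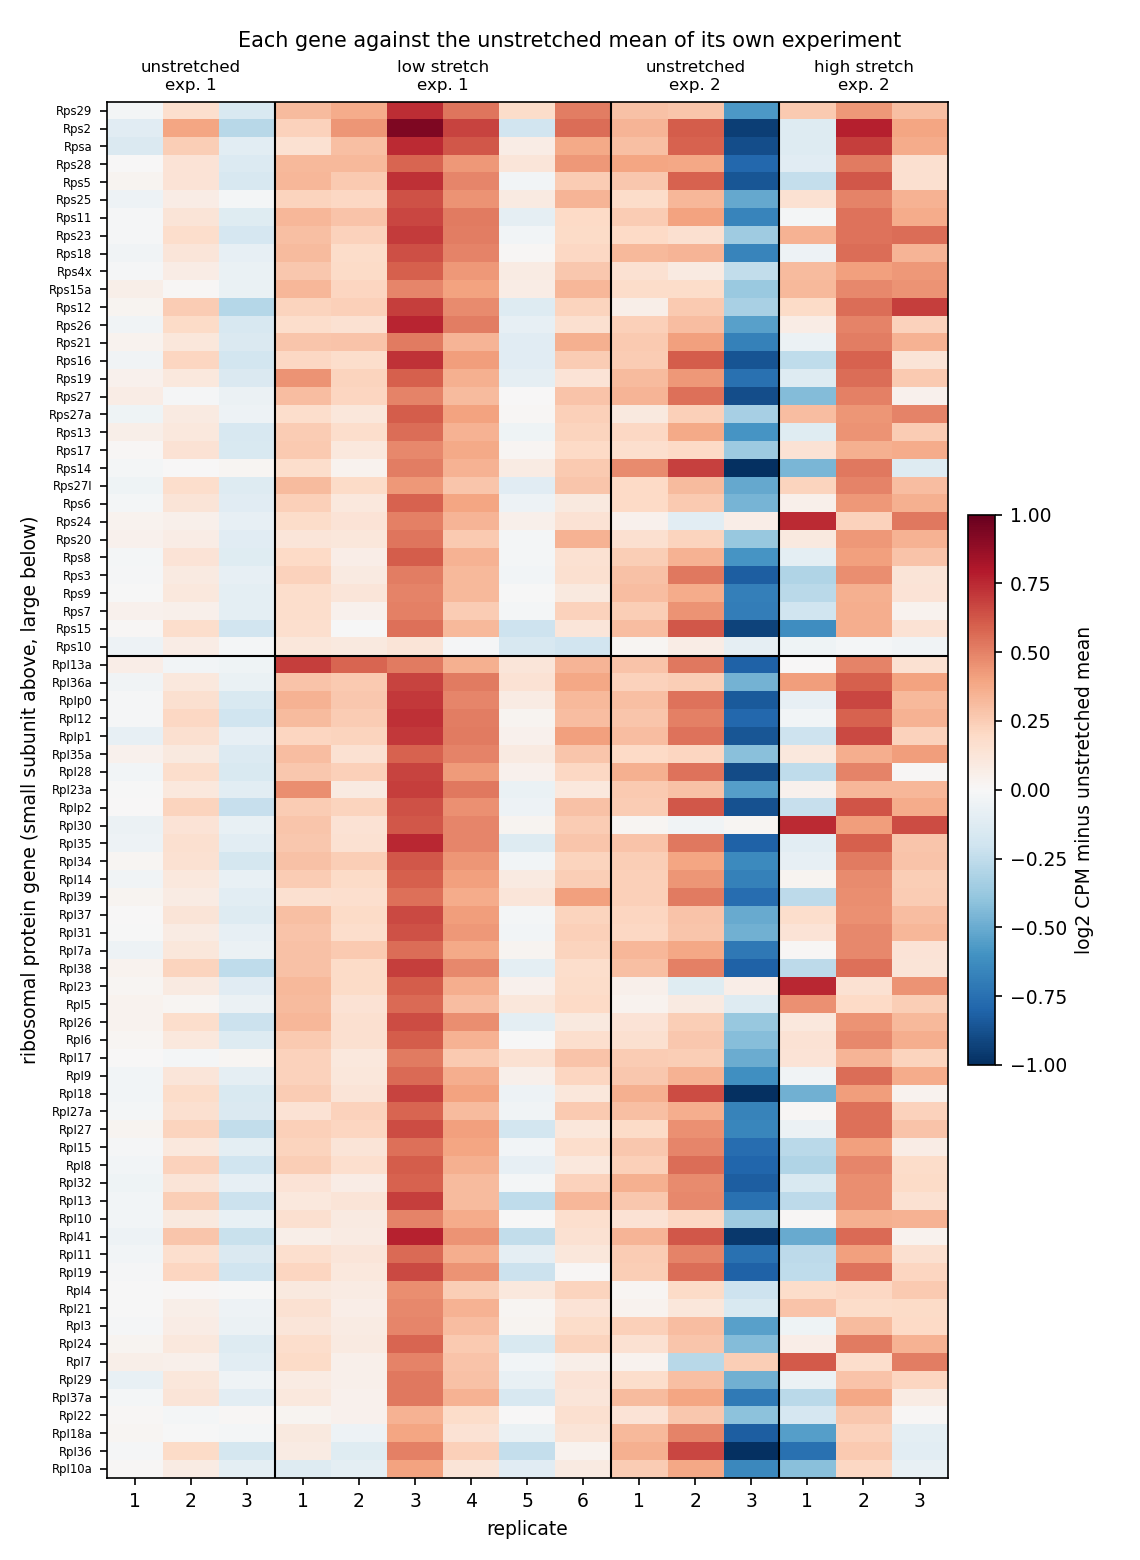
Difference of log2 CPM from the unstretched mean of the same experiment, for 77 ribosomal protein genes (rows, by subunit) in the 15 samples (columns); the colour scale is clipped at 1 in either direction. Low-stretch replicate 3 is high over nearly all genes and low-stretch replicate 5 is not, and unstretched replicate 3 of experiment 2 is low in all but 4 genes.

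The high-stretch comparison, at the larger amplitude, gave 0 of 78 members past the edgeR test, where 3.47% of 18524 genes passed. At an unadjusted p under 0.05 there were 4 members, where 14.6% of all genes were, and DESeq2 called 1, Rpl30, where it called 7.57% of all genes. A positive log2 fold change was found in 68 of 78 members, against 47.6% of all genes, with a median of 0.22, a 1.16-fold level, against -0.02 over all genes. These values depended on 1 unstretched library. Without unstretched replicate 3, 32 of 77 members were positive with a median of -0.03. Rpl30 alone rose in that fit (log2 fold change 0.68, edgeR adjusted p = 0.0398), where 3.42% of all genes rose and 4.35% fell. Within runs, the member share in the high-stretch samples was 0.854, 1.06 and 1.52 times that of the unstretched neighbour, the last of these against replicate 3. In that replicate only Rpl23, Rpl30, Rpl7 and Rps24 lay above the mean of their group.

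Rpl30, a large-subunit protein at the interface of the subunits, had the lowest p. It had 374, 299 and 351 CPM in the high-stretch samples and 226, 218 and 226 CPM in the unstretched ones, a log2 fold change of 0.63 (SE 0.17, edgeR adjusted p = 0.0997). The groups did not overlap, and unstretched replicate 3 was no different from its neighbours for this gene. Rps24, a small-subunit protein mutated in some cases of Diamond-Blackfan anaemia, had 494, 345 and 426 CPM against 304, 274 and 308 CPM, 0.53 (SE 0.20, edgeR adjusted p = 0.242). Rps23, at the decoding centre, had 711, 812 and 821 CPM against 641, 624 and 436 CPM, 0.48 (SE 0.20, edgeR adjusted p = 0.302). Both were without overlap, as were 10 members in the upward direction, where 9.97% of all genes were, and Rpl3l was the only one in the downward direction, where 10.7% were.

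Other members named here did not pass either. Rpl23, another large-subunit protein that can bind Mdm2, had 416, 274 and 336 CPM against 255, 227 and 259 CPM, a log2 fold change of 0.49 (edgeR adjusted p = 0.323). Its groups did not overlap by these values. Rplp0 and Rpsa were both at 0.24 (edgeR adjusted p = 0.883 and 0.886), with 3261, 5497 and 4331 CPM against 4265, 5026 and 1929 CPM for Rplp0. Rps6 was at 0.27 and Rps27l at 0.33. Rpl36 was on the other side at -0.28 (SE 0.41, edgeR adjusted p = 0.883), with 276, 555 and 431 CPM against 590, 734 and 228 CPM, where replicate 3 was again the lowest. Across the 77 members the fold under high stretch went down with the GC content of the gene (Pearson r = -0.64, Spearman rho = -0.61), a description over genes that share the same 6 libraries. In the low-stretch comparison the corresponding r was -0.12.

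**Figure D3:**
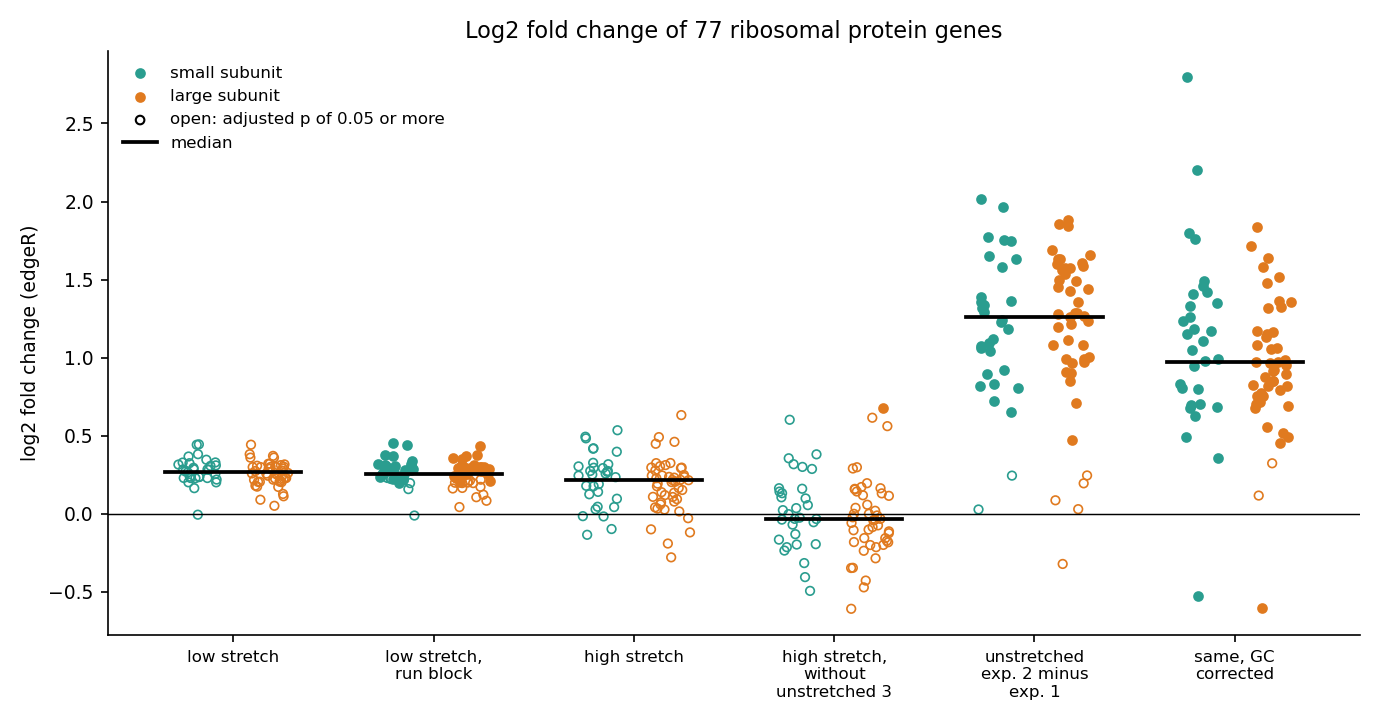
Log2 fold change of 77 ribosomal protein genes (points) in edgeR fits, for the stretch comparisons, their alternatives and the comparison of the unstretched groups on the x axis; the bar in each column is the median. Medians are 0.26 under low stretch, 0.22 under high stretch, -0.03 under high stretch without unstretched replicate 3, and 1.25 between the unstretched groups.

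Whether the response differed between the amplitudes was tested in a single edgeR fit of all 15 samples as the high-stretch effect minus the low-stretch effect. No member passed, 0 of 78, and neither did any of the 22015 genes (0.0%), with 0 members at an unadjusted p under 0.05, where 547 of all genes (2.48%) were. The members' median difference was -0.11. Without unstretched replicate 3 of experiment 2 it was -0.28, with 8 members at an unadjusted p under 0.05, where 9.54% of all genes were, and still 0 past the adjustment (smallest edgeR adjusted p = 0.523). Without unstretched replicate 2 the median was 0.09, on the other side. Rpl30 had the lowest p of the members, with a difference of 0.30 in the fit of all samples, followed by Rps24 with 0.28 and Rpl7 with 0.24, all with an edgeR adjusted p of 1.00. A difference between amplitudes was not detectable with these samples, and it would carry the difference between the experiments as well.

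A larger contrast lay between the unstretched groups. In experiment 2, 70 of 78 members were higher than in experiment 1 and 0 were lower in the edgeR test, where 29.7% of 20707 genes were higher and 32.7% lower. The median log2 fold change was 1.25, a 2.38-fold level, against -0.07 over all genes, with 1.23 in the small subunit (29 of 31 higher) and 1.27 in the large (41 of 47 higher). In 73 members every sample of experiment 2 was above every sample of experiment 1, where 35.2% of all genes were. No stretch was involved here, and everything that differs between the experiments cannot be told apart.

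Rps2 had the largest rise, from 1107, 1580 and 988 CPM in experiment 1 to 5725, 6903 and 2360 CPM in experiment 2, a log2 fold change of 2.01 (SE 0.40, edgeR adjusted p = 0.0055). Rps14, a small-subunit protein lost in a form of myelodysplasia with a chromosome deletion, went from 432, 438 and 443 CPM to 2087, 2413 and 675 CPM, 1.96 (SE 0.42, edgeR adjusted p = 0.00591). Rpl41 went from 377, 474 and 336 CPM to 1689, 2051 and 681 CPM, 1.88 (SE 0.38, edgeR adjusted p = 0.00562). The order of these rises held for the uncorrected fit only: with each sample corrected for GC content, Rps2 was at 1.17, below Rps27l at 2.80 and Rps20 at 2.20, and on gene TPM it was at 1.32, below Rps27 at 1.62. In all 3 genes replicate 3 of experiment 2 was the lowest of its group and still above experiment 1. Rpl18 and Rpl36, both of the large subunit, were at 1.85 (SE 0.39) and 1.84 (SE 0.39), with edgeR adjusted p = 0.00573 and 0.00579.

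By role, all 3 stalk proteins rose, with 1.59 for Rplp0, 1.66 for Rplp1 and 1.63 for Rplp2 on the log2 scale (edgeR adjusted p = 0.00596, 0.00565 and 0.0062). Rpsa rose by 1.75 and Rps6 by 1.04 (edgeR adjusted p = 0.00566 and 0.00641). Rpl3 and Rpl10, which reach toward the catalytic centre of the large subunit, rose by 1.08 and 0.99 (edgeR adjusted p = 0.00711 and 0.00577). Among the genes with paralogs or special partners, Rps27 rose by 1.75, its paralog Rps27l by 1.07 and the ubiquitin fusion Rps27a by 0.82 (edgeR adjusted p = 0.00545, 0.00665 and 0.00839). The calls of Rpl10 and Rps27a were lost on gene TPM. Rps4x, encoded on the X chromosome, rose by 0.65 (edgeR adjusted p = 0.015), a call also lost on gene TPM and without replicate 1 or 3 of experiment 1 or replicate 1 of experiment 2. The rises were 0.90 for Rpl22, 1.5 for Rpl38 and 1.57 for Rpl39 (edgeR adjusted p = 0.00714, 0.00628 and 0.00551). Of the Mdm2 binders, Rpl11 rose by 1.49 (edgeR adjusted p = 0.00567), while Rpl5 had 567, 560 and 530 CPM in experiment 1 and 607, 630 and 543 CPM in experiment 2, a log2 fold change of 0.09 (edgeR adjusted p = 0.661). With the GC correction Rpl5 was at 1.32 and Rpl11 at 0.90, both called higher, and on gene TPM they were at -2.11 and 0.85. Whether these 2 genes differ from each other was not tested.

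The 8 members that did not pass were Rpl5, Rps24, Rpl7, Rpl30, Rpl21, Rpl23, Rps10 and Rpl3l. Rps24 and Rpl7 were both at 0.03, Rpl30 at 0.19, Rpl21 at 0.25 and Rps10 at 0.24 (edgeR adjusted p from 0.227 to 0.899), and Rpl23 was the only negative one at -0.32 (SE 0.16, edgeR adjusted p = 0.114). Rpl23, Rpl30, Rpl7 and Rps24, which were the exceptions in unstretched replicate 3, are all among them. Without that replicate the median over 78 members was 1.47, with 71 higher and 1 lower. Of all genes 33.2% were higher and 39.8% lower in that fit.

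Base composition went along with this contrast. Over the 77 members the log2 fold change between the unstretched groups had a Pearson r of 0.59 and a Spearman rho of 0.67 with GC content, and over 20503 genes tested r was 0.65. By bins of GC content, the medians of the members lay above those of all genes. Between 46 and 48% GC the median was -0.53 over 2360 genes and 0.82 over 13 members, 12 of them higher. Between 54 and 56% GC it was 0.78 over 2115 genes and 1.63 over 9 members, all 9 higher. Single members such as Rpl23 (-0.32 at 51.4% GC) and Rps10 (0.24 at 57.4% GC) lay below the medians of all genes in their bins, 0.27 and 0.92. With each sample corrected for GC content, the edgeR fit gave 73 members higher and 2 lower with a median of 0.97, where 24.4% of all genes were higher and 20.6% lower. The 2 that fell in that fit were Rpl23 (-0.60, edgeR adjusted p = 0.011) and Rps10 (-0.53, edgeR adjusted p = 0.0377). In the same fit 4 members that had not passed were called higher: Rpl30 (1.48), Rpl5 (1.32), Rpl7 (0.87) and Rps24 (0.68), with edgeR adjusted p = 0.00601, 0.00656, 0.00601 and 0.0083. Rpl29 alone lost its call. Across the 77 members the corrected log2 fold change went down with GC content (Pearson r = -0.62, Spearman rho = -0.62). The corrected values, and their order, were thus not free of base composition. On gene TPM with limma, all genes moved down to a median of -0.44 and the members had a median of 0.61, with 58 of 77 higher and 2 lower, where 17.4% of all genes were higher and 40.3% lower. Of the 70 members higher by counts, 13 were not called on gene TPM, among them Rpl10 (0.04), Rps4x (0.06), Rps27a (0.22) and Rpl4 (-0.12), with limma adjusted p = 0.807, 0.701, 0.125 and 0.403. Mitochondrial genes moved the other way, from 4.17% ± 0.491 of counts in the unstretched samples of experiment 1 to 1.77% ± 0.746 in those of experiment 2 (SD, n = 3 and 3), and the part of this in the member shares was not tested beyond leaving them out of the total, where the means were 3.13% and 5.75%.

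**Figure D4:**
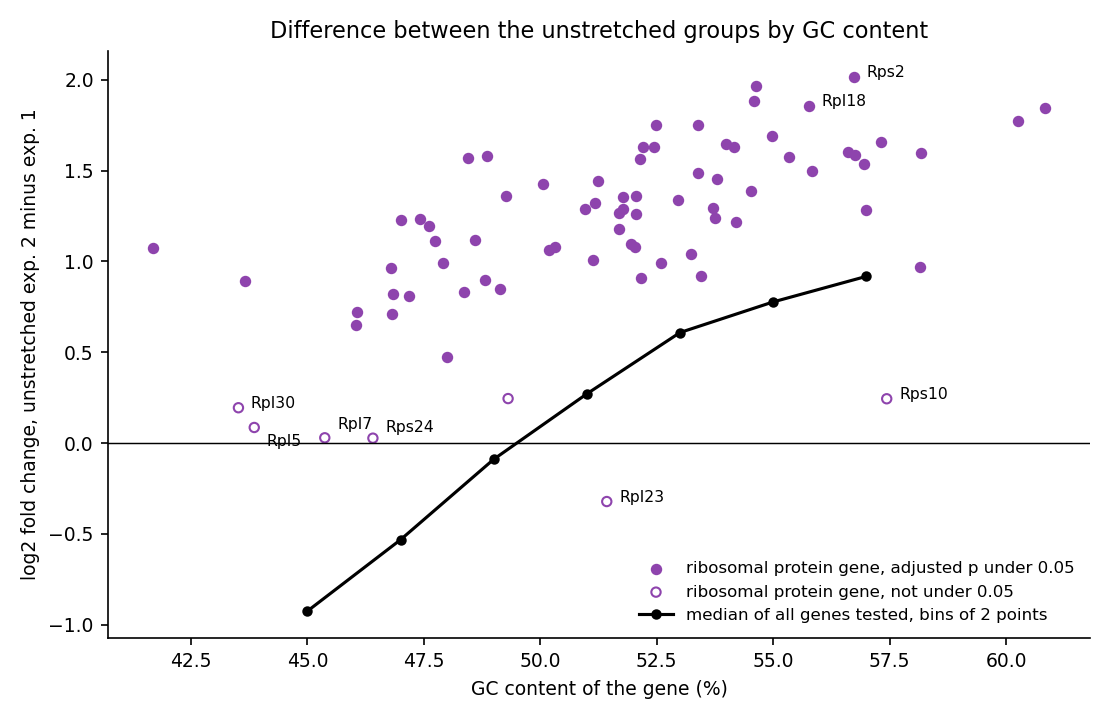
Log2 fold change between the unstretched groups (experiment 2 minus experiment 1, edgeR) against the GC content of the gene in percent, for ribosomal protein genes and for the median of all genes in bins of GC content. Members slope upward with GC content and lie mostly above the line of all genes, with medians of 0.82 against -0.53 at 46 to 48% GC. Rpl23 and Rps10 lie below the line.

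Members moved together from sample to sample. After the group means were taken out, the first principal component held 93.0% of the variance of 77 members over the 15 samples and 56.8% of that of all 12963 genes with at least 1 CPM. The median Pearson r over pairs of members was 0.94, from -0.49 to 1.00, a description that includes whatever the libraries share in depth and base composition. In unstretched replicate 3 of experiment 2 the deviation of a member from its group mean fell with GC content (r = -0.62 over members and -0.72 over 12936 genes), with Rps14 at -1.16, Rpl36 at -1.02 and Rpl18 at -1.01 on the log2 scale. In the low-stretch samples the same r over members lay between -0.39 and 0.12.

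Because these genes move together and share a known promoter architecture, the start sites of members that stood at either end of the comparisons are shown. The RefSeq promoter table (GRCm38.p6) matched 60 of 80 members, and each line gives 40 bases before the start and 20 bases from it on, 5′ to 3′ on the coding strand, with the longest run of C and T in capitals. Rpl13a, Rps28, Rps24 and Rps23 had low p-values under stretch, and Rps2 and Rpl18 large rises between the unstretched groups. Rpl5, Rpl23 and Rps10 were not called higher there in the uncorrected edgeR fit. With the GC correction Rpl5 was called higher, and Rpl23 and Rps10 lower.
Rpl13a, chr7:45128726-45128785, minus strand: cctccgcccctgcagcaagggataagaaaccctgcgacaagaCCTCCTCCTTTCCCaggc
Rps28, chr17:33824543-33824602, minus strand: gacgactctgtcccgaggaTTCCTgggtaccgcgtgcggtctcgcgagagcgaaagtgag
Rps24, chr14:24490638-24490697, plus strand: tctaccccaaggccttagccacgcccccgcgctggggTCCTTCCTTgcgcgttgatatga
Rps23, chr13:90923082-90923141, plus strand: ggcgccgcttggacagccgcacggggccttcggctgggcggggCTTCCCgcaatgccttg
Rps2, chr17:24720023-24720082, plus strand: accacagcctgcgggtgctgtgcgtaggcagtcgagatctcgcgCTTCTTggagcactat
Rpl18, chr7:45718031-45718090, plus strand: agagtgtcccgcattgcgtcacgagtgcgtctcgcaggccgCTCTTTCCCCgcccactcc
Rpl5, chr5:107900488-107900547, plus strand: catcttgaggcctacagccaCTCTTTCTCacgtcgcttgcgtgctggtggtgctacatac
Rpl23, chr11:97782420-97782479, minus strand: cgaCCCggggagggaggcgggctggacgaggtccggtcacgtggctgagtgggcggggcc
Rps10, chr17:27635225-27635284, minus strand: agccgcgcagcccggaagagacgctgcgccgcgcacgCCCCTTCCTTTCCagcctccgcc

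The run in Rpl13a is 14 bases long and begins at the third base of the transcript, that of Rps10 is 13 and that of Rpl18 is 10, while Rpl23 has no run over 3 bases in this window. A run of at least 8 C or T in the 60 bases was present in 31 of 60 matched members (51.7%) and in 24% of 27025 promoters, with a median longest run of 8 and 6 bases. CCGGAAG, the core of ETS-family sites, was found on either strand of the 300-base entries in 24 members (40%) and in 9.1% of all promoters. TATAAA was found on either strand in 5 members (8.3%) and in 14.2% of all. CTCTTTC on the coding strand of the 60 bases, which overlaps the pyrimidine run, was found in 6 members (10%) and in 0.8% of all, among them Rpl18 and Rpl5 above. Members with and without the run of 8 had median log2 fold changes of 0.28 and 0.28 under low stretch, 0.20 and 0.24 under high stretch, and 1.26 and 1.29 between the unstretched groups (30 and 27 genes). These letter matches are descriptions and are not measured start sites or bound factors in these cells.

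The study's title asks about alternative splicing, and transcript shares of the members were tested with limma. The value tested was the log2 of 1 transcript's TPM over the summed TPM of all other transcripts of its gene. Under low stretch 0 of 97 transcripts from 39 members passed, where 0.0145% of 27672 transcripts passed, with 4 at an unadjusted p under 0.05, where 10% were. Under high stretch 0 of 95 from 38 members passed, where 0.0% of 23374 passed, with 8 at an unadjusted p under 0.05, where 8.15% were.

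Rps24 had the lowest p in both stretch comparisons. This gene is known for small alternative exons near its 3′ end that change the last residues of the protein. Its main transcripts in GENCODE differ by an 18-base exon at chr14:24494052-24494069 (GRCm38, plus strand), in capitals below between the last 24 bases of exon 4 and the first 12 bases of the exon after it.
Rps24-202: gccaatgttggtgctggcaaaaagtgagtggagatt
Rps24-205: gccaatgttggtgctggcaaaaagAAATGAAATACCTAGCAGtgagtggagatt
Without the exon, Rps24-202 reads from the last codon AAG of exon 4 into a TGA stop and holds 130 codons. With it, Rps24-205 gains 1 codon, AAA, before a TGA inside the 18-base exon, and holds 131 codons. Rps24-201 ends in a 3-base exon at the same codon as Rps24-202.

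Rps24-202 made up 61.5%, 61.0% and 69.2% of Rps24 TPM in the unstretched samples of experiment 1 and 49.6% to 62.6% in the low-stretch samples, with a median of 53.6%, a difference of the log2 ratio of -0.53 (SE 0.19, limma adjusted p = 0.406). These groups overlapped. In experiment 2 it made up 65.7%, 66.6% and 66.8% without stretch and 51.0%, 57.6% and 53.2% with high stretch, a difference of -0.75 (SE 0.14, limma adjusted p = 0.293). All high-stretch samples were below all unstretched ones, by 12.4 percentage points in the mean, and replicate 3 did not stand apart here. Rps24-205, with the exon, was on the other side: 21.2%, 22.8% and 23.8% without and 33.0%, 29.0% and 30.3% with high stretch (0.60, SE 0.13, limma adjusted p = 0.353), and 29.5%, 27.5% and 22% against 27.2% to 32.0%, with a median of 30.2%, in experiment 1 (limma adjusted p = 0.522). Rps24-201 had 6.83% ± 1.26 against 11.5% ± 3.59 under low stretch (n = 3 and 6) and 8.80% ± 1.77 against 12.7% ± 1.71 under high stretch (n = 3 and 3), with limma adjusted p = 0.431 and 0.597. None of these passed the adjustment, and shares of 1 gene's transcripts are bound to sum to 100%.

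**Figure D5:**
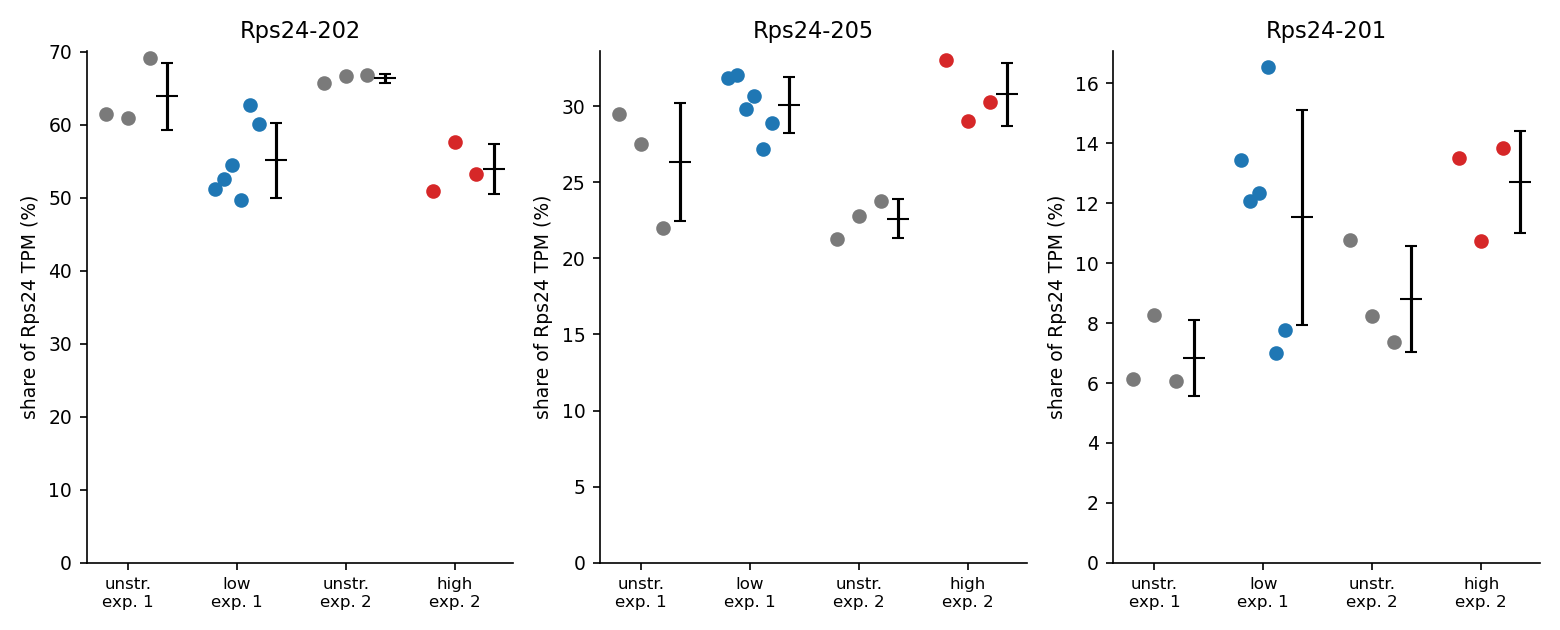
Share of Rps24 TPM in percent taken by its 3 main transcripts in the 4 groups on the x axis; points are samples, and bars with error bars are means and SD (n = 3, 6, 3 and 3). Rps24-202 lies between 65.7% and 66.8% in the unstretched samples of experiment 2 and between 51.0% and 57.6% under high stretch, and Rps24-205 lies the other way.

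The other transcripts with the lowest p were Rpl13a-207 under low stretch, with a mean of 20.2% without and 16.5% with stretch (limma adjusted p = 0.456), and Rpl5-206 and Rps27-201 under high stretch. Rpl5-206 had 5.75% without and 10.5% with high stretch, and Rps27-201 had 90.9% and 82.0% (limma adjusted p = 0.364 and 0.424). The groups of each of these 3 did not overlap. Between the unstretched groups 9 of 95 transcripts passed, 5 higher and 4 lower, below the 32.1% of all transcripts. They included Rpl5-201, with 38.1% in experiment 1 and 60.6% in experiment 2, and the retained-intron transcript Rpl5-202, with 20.4% and 9.90% (limma adjusted p = 0.027 and 0.026). In the unstretched samples of experiment 2, Rpl5-201 had 4.92 to 8.93 TPM, Rpl5-202 0.478 to 2.64 TPM and Rpl5-206 0.432 to 0.952 TPM. Counts and TPM of Rpl5 and Rpl13a were far apart, as given above, so the shares of their transcripts are uncertain. Rpl10-201 rose by 0.72 and Rpl41-203 by 0.68 on the log2 ratio scale (limma adjusted p = 0.0244 and 0.0246). The calls of Rpl5-201, Rpl5-202, Rpl10-201 and Rpl41-203 each held in only 1 of 6 fits that left out a sample, the fit without replicate 3 of experiment 2. Retained-intron transcripts held 2.13% ± 0.0447 and 1.58% ± 0.183 of the members' TPM in the unstretched groups (SD, n = 3 and 3).

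Genes that work with the ribosomal proteins were read from lists of their roles. Under low stretch the ribosomal proteins that the name rule does not take had 7 of 7 positive values with a median log2 fold change of 0.27 and 0 passing, among them Fau, fused to a ubiquitin-like protein, at 0.25, Rack1, the signalling scaffold of the small subunit, at 0.28, Rpl22l1 at 0.29 and Rpl36al at 0.44 (edgeR adjusted p from 0.183 to 0.330). Ribosome biogenesis genes had 33 of 35 positive with a median of 0.28, and translation factors 17 of 18 with 0.23, with 0 passing in either list. With the run as a block, 27 of 35 and 9 of 18 rose, where 13.7% of all genes did. Processed pseudogenes of ribosomal proteins had 171 of 183 positive with a median of 0.29, and their counts stayed near 10.6 and 10.7 per 100 member counts in the unstretched and low-stretch samples. Mitochondrial ribosomal proteins, which serve a separate ribosome, had 71 of 77 positive with a median of 0.15, 24 that rose with the run as a block, and 1 that fell without it, Mrps11 (-0.93, edgeR adjusted p = 0.00752), from 66.8 ± 8.47 to 35.2 ± 6.25 CPM (SD, n = 3 and 6).

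Among 17 translation control genes, 0 rose and 1 fell under low stretch, where 1.85% of all genes rose and 3.6% fell. Under high stretch 1 rose and 1 fell, where 1.31% of all genes rose and 2.16% fell. The genes were Mycn and Myc. Mycn, a transcription factor of the Myc family that drives ribosome production, fell from 74.5 ± 21.9 to 41.7 ± 7.39 CPM (SD, n = 3 and 6) under low stretch (log2 fold change -0.85, SE 0.19, edgeR adjusted p = 0.0307) and from 68.6 ± 7.04 to 35.6 ± 5.67 CPM (n = 3 and 3) under high stretch (-0.93, SE 0.19, edgeR adjusted p = 0.0441). The low-stretch call was lost without low-stretch replicate 2 or 4 or unstretched replicate 2 or 3, and the value was -0.56 without unstretched replicate 2. The high-stretch call was lost with the GC correction (-0.92), on gene TPM, and without any 1 sample other than unstretched replicate 3. Myc itself rose under high stretch, from 18.9 ± 6.04 to 57.1 ± 3.69 CPM (1.61, SE 0.26, edgeR adjusted p = 0.0186), and was at 1.04 under low stretch (edgeR adjusted p = 0.0838). Its high-stretch call was lost on gene TPM and without high-stretch replicate 1 or 3 or unstretched replicate 1. Of 8 genes of the p53 axis, Sesn2 and Bbc3 fell under low stretch (-0.40 and -0.45, edgeR adjusted p = 0.0309 and 0.013), where 3.6% of all genes fell, and 0 passed under high stretch. The call of Sesn2 was lost without any 1 unstretched replicate or without low-stretch replicate 2, 4 or 6, and that of Bbc3 without unstretched replicate 1 or 3. No biogenesis gene, translation factor or ribosomal protein chaperone passed under high stretch.

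Between the unstretched groups the lists did not all follow the ribosomal proteins. Where 29.7% of all genes were higher and 32.7% lower, biogenesis genes had 15 higher and 13 lower of 35, translation factors 11 higher and 5 lower of 18, and mitochondrial ribosomal proteins 59 higher and 4 lower of 77 with a median of 1.01. Pseudogenes had 127 higher and 7 lower of 182, with a median of 1.20. Of the ribosomal proteins outside the rule 4 of 7 were higher, among them Fau at 1.72 and Rack1 at 1.47 (edgeR adjusted p = 0.00566 and 0.00659).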

How the data were processed

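RNA of 15 samples was sequenced as poly(A)-selected, stranded libraries with paired reads of 100 bases, per the labels' protocols. Per the submitters' processing notes the tools were STAR 2.7.5c, featureCounts of Subread 2.0.0, DESeq2 1.38.3 and Salmon 1.9.0 on build mm39; the counting options for strand and for reads with several matches are not given in the sources used here. The authors deposited raw gene counts and transcript TPM values. Of these, 52083 of 55416 genes and 137189 of 140789 transcripts matched GENCODE M21 (GRCm38), which gave symbols, lengths and GC content; no coordinates of the authors' build are printed.

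Counts were tested with edgeR 4.0.16 (TMM scaling, filterByExpr, quasi-likelihood F test) in R 4.3.3 over all genes that passed the filter, with Benjamini-Hochberg adjustment and a threshold of 0.05. Printed CPM use TMM-scaled library sizes over all 15 samples. Transcript shares were tested with limma 3.58.1 on log2 ratios with a pseudocount of 0.1 TPM, for genes of at least 1 TPM and transcripts with mean shares of 0.05 to 0.95. All tests were two-sided. The main edgeR and transcript-share fits were checked on simulated data, and the alternatives were not. Alternatives were DESeq2 1.42.0, other scalings and filters, gene TPM with limma, GC and length corrections, blocks and leaving out each sample. Tables were made in Python 3.11.15.

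Named members were those that passed with the largest changes, otherwise the 3 lowest p, the 3 highest and lowest TPM, and a fixed set of members with known special roles; other names were chosen after their values were seen. The members and the gene lists were chosen with earlier results of these data known.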

Additional observations from a re-analysis of the deposited data

How the results depend on the processing

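Under low stretch the count of members past the threshold was 0 in the main edgeR fit (5.45% of all genes) and 5 with DESeq2. It was 2 with the GC correction (6.03% of all genes), 2 with the length correction (6.16%) and 54 with the position run as a block (28.2%). DESeq2 called Rpl13a, Rps29, Rps28, Rpl36a and Rps15a, with 13.1% of all genes past its threshold. Leaving out 1 sample gave 0 to 7, the 7 without low-stretch replicate 5 (7.57% of all genes). Under high stretch the count was 0 (3.47% of all genes), with 1 from DESeq2 (Rpl30, 7.57% of all genes). It was 2 with all 15 samples in 1 fit (Rpl30 and Rps24, 6.76% of all genes). Leaving out a sample gave 0 to 1, the 1 without unstretched replicate 3 (7.77% of all genes). Between the unstretched groups leaving out a sample gave 63 to 72 in place of 70, with 44.1% to 73.0% of all genes in place of 62.5%. For transcript shares between the unstretched groups, 9 of 95 (32.1% of all transcripts) became 14 of 95 with a pseudocount of 1 TPM (42.2%). With no filter on low values it was 172 of 468 (29.7% of all transcripts). Leaving out a sample gave 0 to 24, the 24 without replicate 3 of experiment 2 (47.4% of all transcripts). In experiment 1 the replicate numbers do not pair the samples, since same-numbered samples did not deviate together (mean correlation -0.0713). Samples of the same position run did: there the mean correlation was 0.438 within runs, from 0.328 to 0.570. Between runs of experiment 1 it was -0.218, from -0.520 to -0.0521. The main edgeR fit of low stretch does not take these runs into account. In experiment 2 the replicate numbers coincide with the position runs, with a mean correlation of 0.176 within and -0.0951 between runs. The replicate number was also fitted as a block, where only numbers 1 to 3 have an unstretched partner in experiment 1. Under low stretch 1 member then passed, where 2.3% of all genes did. It was also 1 with the GC correction (3.42% of all genes) and 1 with the length correction (2.65%). Under high stretch, where this block is the run block, 0 passed (8.35% of all genes), or 2 with the GC correction (13.7%).

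Group shares by summed TPM were 9.51%, 10.6%, 15.7% and 16.8%; leaving out a sample moved the shares of counts over 2.85 to 3.13%, 3.30 to 3.58%, 5.20 to 6.46% and 5.79 to 6.55%. The median log2 fold change over members went from 0.18 to 0.35 under low stretch, or 0.15 on gene TPM, from -0.032 to 0.41 under high stretch, reversed at -0.032 without unstretched replicate 3, and from 1.09 to 1.47 between the unstretched groups, or 0.61 on gene TPM. Some single members changed sign. Between the unstretched groups these were, on gene TPM, Rpl5 (-2.11), Rps24 (-0.45), Rpl7 (-0.56), Rpl30 (-0.26), Rpl21 (-0.33) and Rpl4 (-0.12), with a mean count of at least 100, Rpl5 (-0.044), Rps24 (-0.10) and Rpl7 (-0.10), and with the GC correction, Rps10 (-0.53) and Rpl3l (-0.55). Leaving out a sample gave Rps24 -0.048 to 0.095, Rpl7 -0.14 to 0.17 and Rpl3l -0.024 to 0.22 there, and under high stretch Rpl36 -0.61 to 0.065, Rplp0 -0.042 to 0.52 and Rpsa -0.054 to 0.55. The cause of these moves was not tested. Depth limits Rpl3l, Rpl10l and Rpl39l, with at most 22 counts in a library.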
